A study of Mus musculus with 14 samples.

Results

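The comparison set all socially defeated mice, pooled over their later behaviour, against naive mice in the medial prefrontal cortex, a frontal region that takes part in social behaviour and in the control of stress responses. Members were chosen by their labels alone: 6 defeated mice classed as susceptible and 3 classed as resilient formed the defeated arm of 9, and 5 mice formed the naive arm, which takes in 14 of the 14 arrays of the series. Every mouse was a wild-type C57BL/6 animal. Defeated mice had gone through repeated social defeat stress, in which a mouse meets an aggressor again and again, and naive mice had instead been moved between cages. Brains were perfused with buffer at 4 h after the last session, a 1.5 mm punch was taken, and 35 ng of total RNA from each single mouse was labelled with 1 dye and hybridised to its own array. The labels mention independent experiments without saying which mouse came from which, and the age of the mice was not used here. Pooling asks how defeated mice differ from naive mice on average, whatever their behavioural class. A pooled difference does not show that both classes changed.

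Defeat activates the adrenal axis, and the corticosterone it releases binds the glucocorticoid receptor, which enters the nucleus and switches target genes on or off in neurons, glia and vessel cells. Stress also mobilises myeloid cells and acute-phase proteins, among them lipocalin 2 and the calprotectin subunits S100a8 and S100a9. Cells under a load of unfolded protein in the endoplasmic reticulum (ER) raise its chaperones through the transcription factors ATF6, XBP1 and ATF4.

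A level below is the log2 array signal minus the 75th percentile of that array, and a difference is the defeated minus the naive level from a limma fit with the slide as a block, given ± its standard error (SE). Levels are compared within a gene and never between genes. A gene passed the test when its p, adjusted by Benjamini-Hochberg over all 14453 genes tested, was under 0.05. The 14 arrays lay on 3 slides, each of which held both arms, although slide 1 held 1 naive mouse. Between 48.0% and 65.4% of the spots of an array were well above background, and 0 spots were saturated. Precision is set by how few arrays there are. Within slides 1 and 2 every defeated array was brighter than every naive one, with 75th percentiles of 7.72 to 8.04 against 7.20 on slide 1 and of 7.56 to 7.84 against 7.14 to 7.25 on slide 2. On slide 3 the ranges were 8.49 to 9.08 against 8.39 to 8.49. All naive arrays lay in the first row of their slide and all defeated arrays in the second, so an effect of position on the slide and one of defeat cannot be told apart. In punched tissue, fewer cells of a type and less RNA per cell cannot be separated either.

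**Figure D1:**
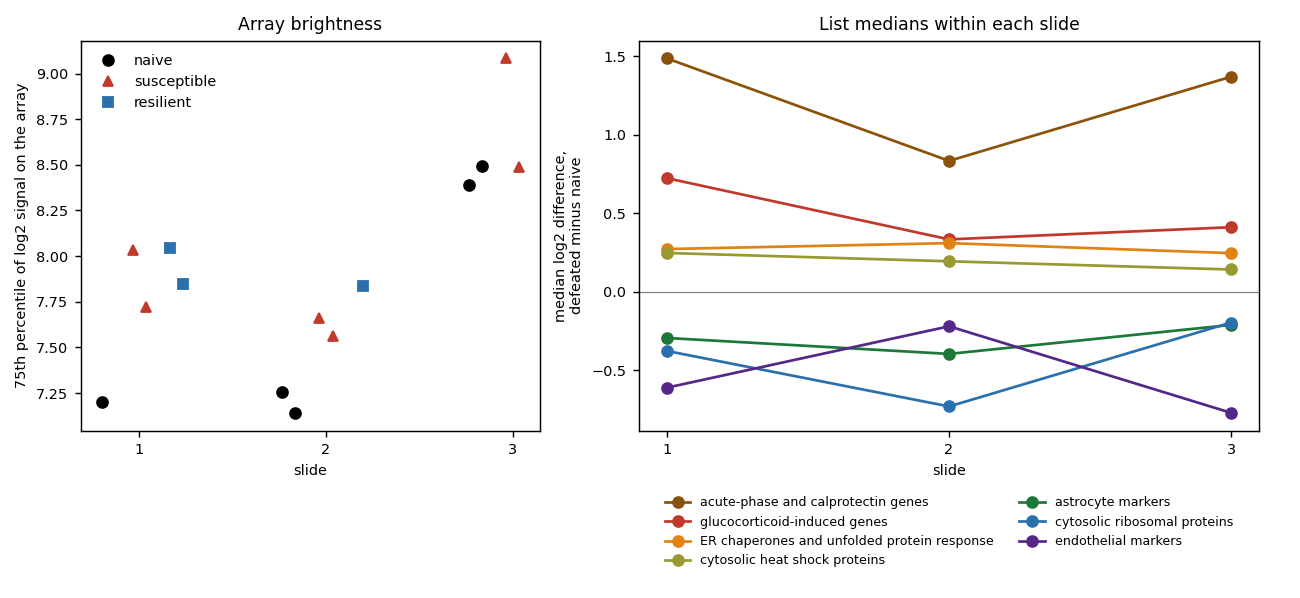
Left, the 75th percentile of the log2 signal on each array by slide, with a marker for each behavioural group; right, the median log2 difference (defeated minus naive) of 7 gene lists within each slide. Defeated arrays were brighter than naive arrays on slides 1 and 2 and overlapped them on slide 3, and each of the 7 list medians kept its sign on the 3 slides.

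Of the genes tested, 3420 (23.7%) differed between defeated and naive mice, 2093 (14.5%) higher and 1327 (9.18%) lower after defeat. Most changes were small. The median size among these genes was 0.40 on the log2 scale, and 75 of them reached 2-fold, 46 higher and 29 lower. The median difference over all genes tested was 0.03. Higher genes made up 61.2% of those that passed, and 48.3% when each array was centred on the median of the genes tested. After removal of the fitted slide effects, the values of all 9 defeated mice lay on 1 side of every naive value for 1543 genes (10.7%), 1495 of which were among those that passed.

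The number of genes depended on a few arrays. Without slide 1, which leaves 5 defeated and 4 naive mice, 2 genes passed, Lcn2 and Lrg1, while 3936 genes had an unadjusted p under 0.05; without slide 2 the number was 307, and without naive mouse 1 it was 1476. With naive mouse 1 left out, slide 1 holds defeated mice alone and adds nothing to the difference between the arms. That fit and the one without slide 1 gave the same list medians, 0.42 for glucocorticoid-induced genes and -0.49 for cytosolic ribosomal proteins. Without the slide block 1499 genes passed. With array brightness as a covariate, a fit added after the data were seen, 0 genes passed limma's test and 1341 had an unadjusted p under 0.05. Of the 141 named genes that passed, 140 kept the sign of their difference in that fit and Lhx6 did not, and 0 stayed past the threshold. These genes were picked by the main fit to the same arrays, so the signs they kept are no support for their differences. The part of brightness in the results was not tested further.

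**Figure D2:**
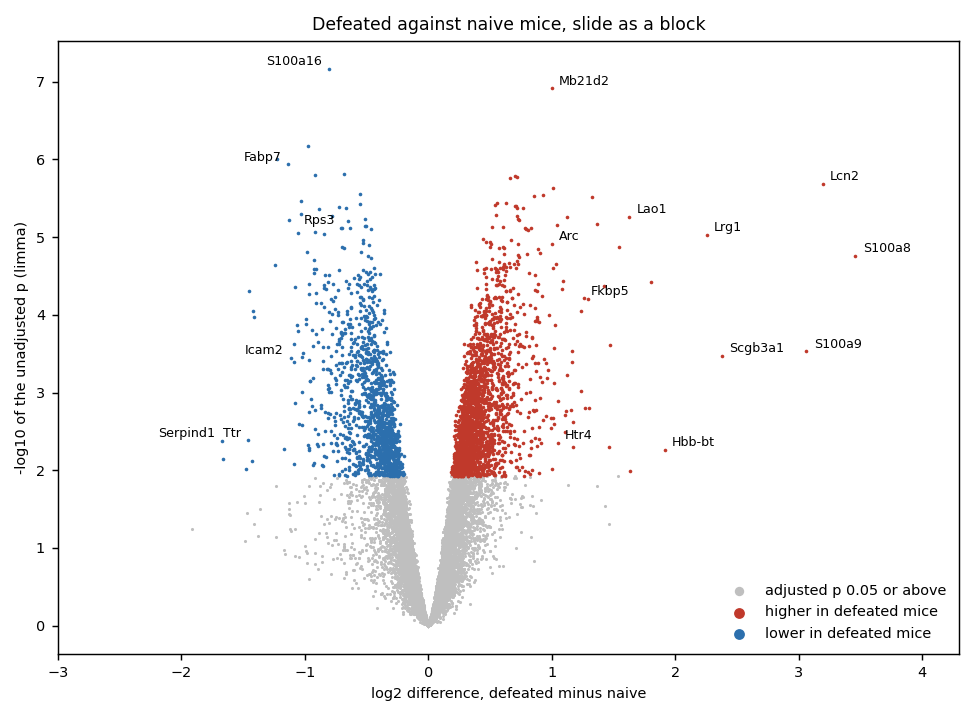
Log2 difference (defeated minus naive) of each of the 14453 genes tested against the negative log10 of its unadjusted limma p, with the slide blocked. Red points are the 2093 genes higher and blue points the 1327 genes lower in defeated mice at an adjusted p under 0.05, and the rises reach further from 0 than the falls, with S100a8, Lcn2 and S100a9 at the right edge.

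Lcn2 and S100a9, of the list of acute-phase and calprotectin genes, had large rises. Of 12 members tested, 10 rose and 0 fell, against 14.5% of all genes higher, with a median difference of 1.22. The mean level over the 12 ran from -1.95 to -1.27 in naive mice and from -0.94 to 0.39 in defeated mice. Lipocalin 2 (Lcn2), an iron-siderophore binding protein secreted in inflammation, stood at -0.65, -0.45, -0.41, -1.06 and -0.97 in naive mice 1 to 5, and at 0.69, 2.66 and 3.59 in the lowest, median and highest of the defeated mice. All 9 defeated mice lay above all 5 naive mice. The difference was 3.20 ± 0.41, or 9.16-fold, with a limma adjusted p of 0.00221, and it was 3.18, 2.42 and 4.14 on slides 1, 2 and 3. With brightness as a covariate it was 2.82 ± 0.74.

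S100a8, the light calprotectin chain of neutrophils and monocytes, was well above background in 0 of 5 naive and 8 of 9 defeated mice. Its naive values were -5.21, -4.72, -5.01, -6.23 and -5.10, and its defeated values ran from -3.25 over a median of -1.53 to 0.54, with no overlap. S100a8 was at least 3.77-fold higher in defeated mice, a bound from the arm means, without the slide block, against the lowest signal well above background on each naive array. Its adjusted p in the limma fit was 0.00302, but it entered that fit through the defeated mice alone, so neither this p nor its part in the count of the list is support for the rise. Its partner S100a9 measured -4.28, -2.19, -1.41, -3.32 and -3.29 in naive mice and -1.47, 0.46 and 2.31 at the bottom, middle and top of the defeated mice. Of the 9 defeated mice, 7 exceeded every naive value, and the difference was 3.06 ± 0.64 (limma adjusted p = 0.00746). Naive mouse 1 lay below the lowest signal well above background on its array, -3.07. S100a9 thus also entered the fit through defeated mice, so neither its p nor its part in the list count is support for the rise.

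Lrg1, a secreted glycoprotein of the acute phase and of vessels, ran at -1.33, -1.88, -1.21, -1.32 and -0.53 in naive mice and at -0.51, 0.92 and 1.89 across defeated mice. The arms did not overlap, although naive mouse 5 lay just under the lowest defeated mouse, and the difference was 2.26 ± 0.33 (limma adjusted p = 0.00237). Further rises were found for the protease inhibitor Serpina3n (1.17 ± 0.25), the interleukin 1 receptor Il1r1 (1.27 ± 0.32), the oncostatin M receptor Osmr (0.96 ± 0.22), the interleukin 6 receptor chain Il6ra (0.60 ± 0.12) and the feedback inhibitor of cytokine signalling Socs3 (0.76 ± 0.14). Ch25h, which makes the oxysterol 25-hydroxycholesterol, rose by 1.46 ± 0.44 and passed in 9 of the 14 fits that leave out 1 mouse. Complement C3 at 0.17 ± 0.13 and ceruloplasmin (Cp) at 0.01 ± 0.32 did not pass. Under normexp background correction 8 members rose, with a median of 0.50. Without slide 1, 2 members rose, and with brightness as a covariate 0 did, with a median of 0.65.

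The upstream cytokines were not measurable. Il1a, Il1b, Il6 and Tnf were well above background on 0 of 14 arrays, and Tlr2 on 3 of 5 naive, 4 of 6 susceptible and 2 of 3 resilient arrays. Of 11 members tested in the list of Toll-like receptors and inflammatory cytokines, 3 rose and 1 fell, with a median of 0.13. The share called was 36.4%, against 23.7% of all genes. Cd14, the lipopolysaccharide co-receptor, rose by 0.58 ± 0.10, and the adaptor Myd88 by 0.46 ± 0.07. Myd88 measured -1.74, -1.71, -1.59, -1.16 and -0.99 in naive mice and -1.28, -1.16 and -0.61 across defeated mice. Its raw values overlapped, and 2 of the 9 defeated mice exceeded every naive one. Both naive arrays of slide 3 were high, and within slides the differences were 0.54, 0.49 and 0.37. Traf6, the ubiquitin ligase downstream of Myd88, rose by 0.50 ± 0.16, a direction that turned to -0.09 under normexp. The receptor Tlr4 fell by 0.79 ± 0.23 (limma adjusted p = 0.0279) and was well above background in 5 of 5 naive but 5 of 9 defeated mice. Naive mice, in which Tlr4 was higher, met the filter on background and susceptible mice did not. Neither the p of Tlr4 nor its part in the list count is therefore support for the fall. Its naive values were -3.04, -3.25, -2.46, -1.81 and -2.97 against -4.68, -3.64 and -3.03 in defeated mice, which overlap.

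Blood markers moved beside the calprotectin genes. Among 6 erythroid genes tested 2 rose and 0 fell, a share called of 33.3% against 23.7% of all genes, with a median of 1.48. Haemoglobin Hbb-bt was at -1.78, -0.53, 0.48, 0.32 and -0.27 in naive and at -0.65, 1.55 and 2.99 in defeated mice, a difference of 1.91 ± 0.58, and Hbb-bs differed by 1.64 ± 0.55. The adult globin genes are near-identical copies, so their probes may not tell them apart. The mean level over the erythroid list ran from -1.50 to -0.55 in naive and from -1.10 to 2.12 in defeated mice, which overlap. Of neutrophil and blood leukocyte markers other than the calprotectin pair, the granule gene Camp rose by 0.31 ± 0.10, the elastase Elane fell by 0.36 ± 0.11, and Ptprc (-0.01 ± 0.14) and Cd3e (0.02 ± 0.15) did not pass. Camp turned to -0.01 under normexp. The granule genes Ngp and Ltf were well above background on 1 of 14 arrays each, Mmp8 and Cxcr2 on 0, and Retnlg on 5, all in defeated mice. How much blood cells contributed to the rise of S100a8 and S100a9 was not tested.

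Of 26 classical glucocorticoid-induced genes tested, 13 were higher, against 14.5% of all genes, and 0 lower, with a median of 0.47. The mean level over the list ran from 1.81 to 2.32 in naive and from 2.31 to 2.90 in defeated mice, which overlap slightly. Fkbp5, the co-chaperone that restrains the receptor and is itself its target, measured 1.83, 1.75, 2.47, 1.83 and 1.79 in naive mice and 2.50, 3.46 and 3.86 across defeated mice. The arms did not overlap, but naive mouse 3 lay just under the lowest defeated mouse. The difference was 1.26 ± 0.22 (limma adjusted p = 0.00414), with 1.81, 0.76 and 1.42 on the 3 slides. Tsc22d3, which encodes the anti-inflammatory protein GILZ, was at 3.38, 3.56, 3.69, 3.90 and 3.91 in naive and at 3.88, 4.82 and 5.53 in defeated mice, of which 8 of 9 exceeded every naive mouse, and differed by 1.08 ± 0.19. Plin4, a lipid droplet protein, rose by 1.30 ± 0.23, the cell cycle inhibitor Cdkn1a by 1.12 ± 0.25, the transcription factors Zbtb16 by 0.86 ± 0.14 and Klf9 by 0.52 ± 0.10, and the kinase Map3k6 by 0.88 ± 0.17.

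Not every textbook target moved. The kinase Sgk1 (0.19 ± 0.18), the clock gene Per1 (0.05 ± 0.09), the metallothioneins Mt1 (-0.01 ± 0.11) and Mt2 (0.03 ± 0.15) and the glutamine synthetase gene Glul (-0.25 ± 0.10) did not pass. Lcn2 stands in both this list and the acute-phase list. Without slide 2, 8 members rose, without slide 1 Lcn2 alone, and with brightness as a covariate 0 passed and the median was 0.30.

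The receptors that read the hormone moved in opposite directions. The glucocorticoid receptor Nr3c1 measured 3.64, 3.62, 3.81, 3.67 and 3.71 in naive mice and 2.98, 3.34 and 3.52 across defeated mice. All 9 defeated mice lay below all 5 naive mice, with a difference of -0.36 ± 0.09 (limma adjusted p = 0.0122). The mineralocorticoid receptor Nr3c2 was at -1.33, -1.25, -1.43, -1.29 and -1.12 in naive and at -1.12, -1.003 and -0.44 in defeated mice; the lowest defeated mouse lay just above the highest naive one, and the difference was 0.37 ± 0.11 (limma adjusted p = 0.0323). Nr3c2 passed in 11 and Nr3c1 in 13 of the 14 fits that leave out 1 mouse. Of the receptor's chaperone complex, Fkbp4 rose by 0.46 ± 0.10, while Hsp90aa1 (0.03 ± 0.08) and Hsp90ab1 (0.10 ± 0.08) did not pass. Of the 11 genes tested in the list of corticosteroid receptors and hormone handling, 3 rose and 2 fell, the other fall being the efflux pump Abcb1a. The share called was 45.5%, against 23.7% of all genes.

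**Figure D3:**
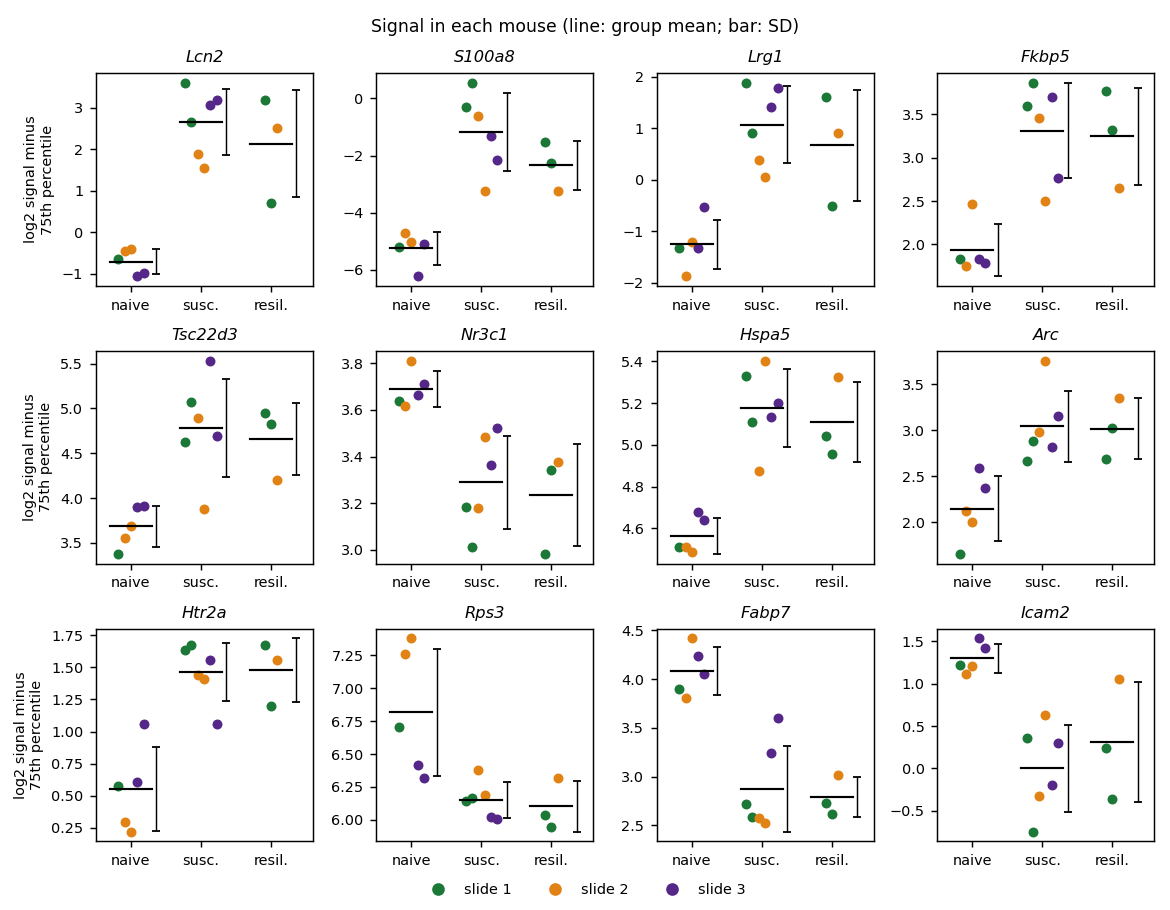
Level (log2 signal minus the 75th percentile of the array) of 12 genes in each mouse, in naive (n = 5), susceptible (n = 6) and resilient (n = 3) mice, coloured by slide, with the group mean as a line and the SD as a bar. Lcn2, S100a8, Lrg1, Fkbp5, Hspa5, Arc and Htr2a lay higher in all 9 defeated mice than in any naive mouse, and Nr3c1, Fabp7 and Icam2 lay lower in all 9.

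Many ER chaperones and genes of the unfolded protein response rose. Of 23 tested 15 were higher, against 14.5% of all genes, and 0 lower, with a median of 0.28 that was 0.27, 0.31 and 0.25 on the 3 slides. The mean level over the list ran from 2.23 to 2.28 in naive and from 2.39 to 2.69 in defeated mice, with no overlap. Hspa5, the central ER chaperone BiP, measured 4.51, 4.51, 4.49, 4.68 and 4.64 in naive mice and 4.88, 5.14 and 5.40 across defeated mice. Every defeated mouse exceeded every naive mouse, and the difference was 0.61 ± 0.10, or 1.53-fold (limma adjusted p = 0.00298). Creld2, a secreted ER stress protein, rose by 0.63 ± 0.11, the chaperone Hyou1 by 1.12 ± 0.29, and the disulphide isomerases Pdia4 and Pdia6 by 0.45 ± 0.12 and 0.43 ± 0.11. The regulators Xbp1 (0.32 ± 0.07), Atf4 (0.29 ± 0.08) and Atf6 (0.28 ± 0.08) rose as well. Ddit3, the pro-apoptotic factor CHOP, stayed at -0.04 ± 0.08, and Sdf2l1 (-0.02 ± 0.15), Canx (-0.09 ± 0.09) and Dnajb9 (0.10 ± 0.09) did not pass. Without naive mouse 1, 6 members rose, without slide 2 or without the slide block, 5, and without slide 1 or with brightness as a covariate 0 did, although the median in that last fit was 0.26.

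The ER stress response element, to which ATF6 and NF-Y bind, reads CCAAT, then 9 bases of any kind, then CCACG, on either strand. In RefSeq promoters of build GRCm38.p6, taken from 250 bases before to 50 bases after the start of a transcript, it was found in 8 of the 21 ER list genes that have a promoter in the table, 6 of the 12 that rose and 2 of the 8 that did not pass. Over all 27025 genes with a promoter, 37 (0.137%) hold it. These counts describe letters in a window and are not binding sites. The stretches around the element in the 6 risen genes are shown because these genes moved together, with the element in capitals, 20 bases on each side, 5′ to 3′ on the strand of the gene; where it lies on the opposite strand it reads CGTGG first.
Hspa5: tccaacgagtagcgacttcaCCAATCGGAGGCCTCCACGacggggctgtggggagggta
Pdia6: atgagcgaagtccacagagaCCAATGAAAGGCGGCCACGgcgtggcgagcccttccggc
Dnajc3: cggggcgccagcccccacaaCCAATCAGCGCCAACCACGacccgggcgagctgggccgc
Creld2: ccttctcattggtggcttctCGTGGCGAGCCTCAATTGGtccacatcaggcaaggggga
Calr: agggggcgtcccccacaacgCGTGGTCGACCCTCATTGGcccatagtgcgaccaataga
Hsp90b1: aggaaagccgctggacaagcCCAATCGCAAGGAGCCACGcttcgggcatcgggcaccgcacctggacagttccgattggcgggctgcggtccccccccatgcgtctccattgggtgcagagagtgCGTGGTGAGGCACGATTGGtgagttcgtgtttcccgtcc

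These lie at chr2:34772005-34772063 (plus strand) for Hspa5, chr12:17266471-17266529 (plus) for Pdia6, chr14:118937807-118937865 (plus) for Dnajc3, chr15:88819500-88819558 (plus) for Creld2, chr8:84847055-84847113 (minus) for Calr and chr10:86705513-86705676 (minus) for Hsp90b1. All are upstream of the transcript start, the element in Hspa5 ending 47 bases before it. Hsp90b1 holds 2 elements, 1 on each strand. The differences of these 6 genes were 0.61 ± 0.10 for Hspa5, 0.63 ± 0.11 for Creld2, 0.43 ± 0.11 for Pdia6, 0.42 ± 0.10 for Dnajc3, 0.29 ± 0.09 for Calr and 0.26 ± 0.08 for Hsp90b1. Canx and Syvn1 hold the element and did not pass.

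Cytosolic heat shock proteins rose in part: 7 of 18 were higher, against 14.5% of all genes, and 0 lower, with a median of 0.21. Chordc1, an Hsp90 co-chaperone, measured 0.46, 0.48, 0.21, 0.71 and 0.77 in naive mice and 0.86, 1.13 and 1.45 across defeated mice, with no overlap and a difference of 0.66 ± 0.11. The inducible Hspa1a rose by 0.84 ± 0.18, the nucleotide exchange factor Hsph1 by 0.52 ± 0.10, and the Hsp90 co-chaperones Ahsa1 by 0.35 ± 0.08 and Stip1 by 0.33 ± 0.09. The constitutive Hspa8 (-0.06 ± 0.08), the mitochondrial pair Hspd1 (0.08 ± 0.08) and Hspe1 (-0.01 ± 0.09) and the small heat shock genes Hspb1 (-0.14 ± 0.31) and Cryab (-0.40 ± 0.16) did not pass. The heat shock element, written GAA, NN, TTC, NN, GAA, was found on either strand in 4 of 16 promoters of the list, 2 of them among the 7 risen genes (Hsph1 and Chordc1), against 0.662% of all genes with a promoter. The other 2 holders, Hspd1 and Hspe1, were among the 7 genes with a promoter that did not pass. Without naive mouse 1, 4 members rose, without slide 2, 1 did, and 12 rose under quantile normalisation or normexp.

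Immediate early genes, which neurons switch on within minutes of activity, were higher in part in defeated mice at 4 h, the only time measured. Of 23 tested 7 rose and 1 fell, a share called of 34.8% against 23.7% of all genes, with a median of 0.25. Arc, an activity-regulated synaptic protein, measured 1.65, 2.12, 2.00, 2.59 and 2.37 in naive and 2.66, 2.98 and 3.76 in defeated mice. No values overlapped, and the difference was 1.00 ± 0.15, a 2.00-fold rise (limma adjusted p = 0.00266). It was 1.16 and 1.30 on slides 1 and 2 and 0.51 on slide 3, and 1.15 ± 0.27 with brightness as a covariate. Fos rose by 0.89 ± 0.17, Junb by 0.81 ± 0.27, Jun by 0.54 ± 0.11, the growth factor Bdnf by 0.44 ± 0.13, Btg2 by 0.37 ± 0.13 and the phosphatase Dusp1 by 0.34 ± 0.07. Fos values overlapped, with 6 of 9 defeated mice above every naive mouse. Klf4 fell by 0.61 ± 0.21. Egr1 (0.22 ± 0.16), Egr2 (0.87 ± 0.37), Npas4 (0.27 ± 0.18), Nr4a1 (0.34 ± 0.15) and Homer1 (0.01 ± 0.09) did not pass. The cAMP response element, TGACGTCA, was found in the promoters of 2 of 21 genes of the list, Btg2 and Dusp1, which both rose, against 2.03% of all genes. The serum response element CArG box stood in 1, Egr2, against 1.81%.

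Among circadian clock genes 6 of 18 rose, against 14.5% of all genes higher, and 0 fell, with a median of 0.07. Per3, a repressor of the clock, measured -1.97, -1.55, -1.97, -1.94 and -1.67 in naive mice and -1.52, -0.95 and -0.58 across defeated mice, which did not overlap, and the difference was 0.80 ± 0.13 (limma adjusted p = 0.00298). Nfil3, which represses D-box genes, rose by 0.73 ± 0.11, Bhlhe40 by 0.63 ± 0.10, Per2 by 0.50 ± 0.09, the activator Arntl by 0.40 ± 0.09 and Hlf by 0.36 ± 0.11. Per1 (0.05 ± 0.09), Nr1d1 (0.06 ± 0.13), Dbp (-0.20 ± 0.11) and Clock (-0.03 ± 0.08) did not pass. The D-box, TTATGTAA, was found in 1 of 17 promoters of the list, that of Per3, against 1.11% of all genes, and it occurs there 2 times. The E-box CACGTG stood in 5 of 17 against 8.09% of all genes, and in 0 of the 4 risen genes with a promoter in the table. The glucocorticoid response element, G, N, ACA, NNN, TGT, N, C, stood in 4 of 24 promoters of the glucocorticoid list, 1 of them among the 11 risen genes with a promoter (Map3k6), against 0.537% of all genes. The other 3 holders, Sgk1, Mt1 and Fam107a, were among the 13 members that did not pass. The stretches of Per3 and Map3k6 are shown, as the risen genes of these lists that hold their element, with the same 20 bases on each side of the capitals, at chr4:151044796-151044890 (minus strand) and chr4:133240617-133240669 (plus strand).
Per3: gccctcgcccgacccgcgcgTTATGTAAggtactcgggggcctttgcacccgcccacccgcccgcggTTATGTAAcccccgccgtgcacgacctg
Map3k6: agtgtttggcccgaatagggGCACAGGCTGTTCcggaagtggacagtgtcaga

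Among monoamine genes 2 serotonin receptors rose. Htr2a, the excitatory 5-HT2A receptor of cortical pyramidal neurons, measured 0.58, 0.30, 0.22, 0.60 and 1.06 in naive mice and 1.06, 1.56 and 1.68 in the lowest, median and highest defeated mouse. All 9 defeated mice lay above all naive mice, though naive mouse 5 and the lowest defeated mouse differed by less than the rounding, and the difference was 0.90 ± 0.14, or 1.87-fold (limma adjusted p = 0.00295). Htr4 rose by 1.05 ± 0.31 and passed in 10 of the 14 fits that leave out 1 mouse. The dopamine receptor Drd2 rose by 0.35 ± 0.11, a difference that was -0.0020 under normexp. Maoa, which degrades monoamines, fell by 0.32 ± 0.10, and the beta-adrenergic receptor Adrb1 by 0.32 ± 0.11. Over the 19 monoamine genes tested 3 rose and 2 fell, with a median near 0. The share called, 26.3%, is close to the 23.7% of all genes called in either direction.

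Changes in other synaptic genes were few and small in the fit reported. Of the AMPA, NMDA and kainate receptor subunits 2 of 13 rose, Gria3 by 0.40 ± 0.10 and the obligatory NMDA subunit Grin1 by 0.38 ± 0.11. Of metabotropic glutamate receptors and postsynaptic scaffolds 3 of 19 rose, among them the scaffold Dlg3 (0.29 ± 0.09), and 2 fell, the presynaptic receptor Grm2 by 0.29 ± 0.08 and Grm5 by 0.37 ± 0.12. Grm5 turned to 0.19 when the probes of the gene were averaged. GABA-A receptor subunits and GABA synthesis genes rose in 4 of 17, with Gad1, a GABA-synthesising enzyme, at 2.44, 2.31, 1.72, 2.38 and 2.70 in naive and at 2.51, 2.67 and 2.96 in defeated mice, which overlap, and a difference of 0.41 ± 0.11. Synaptic vesicle and active zone genes rose in 4 of 21 and fell in 1, with the vesicle protein Sv2b at 0.44 ± 0.09 and the active zone scaffold Pclo at -0.33 ± 0.10. Voltage-gated potassium channel subunits rose in 5 of 20, most of all the M-channel subunit Kcnq3 by 0.64 ± 0.16, which was 0.14 on slide 3. These 5 shares run from 15.4% to 26.3% called in either direction, against 23.7% of all genes. Under normexp 11 of 21 synaptic vesicle, 9 of 17 GABA and 5 of 13 AMPA, NMDA and kainate genes rose. Of the metabotropic and potassium channel lists 4 of 19 and 4 of 20 rose in that setting, and of all genes 2859 of 14453.

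Among neuropeptides, rises were found for somatostatin (Sst) by 0.52 ± 0.15, neuropeptide Y (Npy) by 0.53 ± 0.14, pronociceptin (Pnoc) by 0.53 ± 0.10 and the CRH-binding protein Crhbp by 0.47 ± 0.16. These were 4 of the 17 neuropeptides and stress peptides tested, with 0 lower. The share called, 23.5%, is close to the 23.7% of all genes called in either direction. Npy measured 2.17, 2.22, 1.89, 2.69 and 2.59 in naive and 2.29, 2.85 and 3.16 in defeated mice, and 6 of the 9 exceeded every naive mouse. Corticotropin-releasing hormone (Crh, 0.23 ± 0.13), Vip (0.37 ± 0.17), Penk (0.09 ± 0.11) and Cck (0.03 ± 0.12) did not pass. Crhbp passed in 4 of the 14 fits that leave out 1 mouse.

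Cytosolic ribosomal proteins fell almost as a whole. Of 27 tested 24 fell, against 9.18% of all genes lower, 0 rose and 0 had a difference above 0, with a median of -0.46. The mean level over the list ran from 7.41 to 7.90 in naive and from 6.95 to 7.34 in defeated mice, with no overlap. Rps3, of the small subunit, measured 6.71, 7.26, 7.38, 6.42 and 6.32 in naive mice and 5.95, 6.14 and 6.38 across defeated mice. Of the defeated mice 8 of 9 lay below every naive mouse, and the difference was -0.70 ± 0.10, that is 0.617 of the naive level (limma adjusted p = 0.00221). Rps14 fell by 0.77 ± 0.13, Rpl22 by 0.63 ± 0.12 and Rpl38 by 0.58 ± 0.10, while Rpl3 (-0.25 ± 0.09), Rpl30 (-0.22 ± 0.18) and Rps6 (-0.18 ± 0.08) did not pass. Many ribosomal protein genes have processed pseudogenes, and probe specificity was not analysed here. The median was -0.38, -0.73 and -0.20 on the 3 slides. It was -0.14 with 10 members lower after quantile normalisation, -0.32 with 21 lower under normexp, and -0.22 with 0 past the threshold when brightness was a covariate; without slide 2, 1 member passed, and without slide 1, 0.

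Oxidative phosphorylation subunits fell in 6 of 26 and rose in 0, a share called of 23.1% against 23.7% of all genes, led by Cox6c (-0.56 ± 0.13) and Ndufb8 (-0.38 ± 0.11), both of the inner mitochondrial membrane. Their median of -0.14 was 0.03, -0.35 and -0.02 on the 3 slides, and other scalings moved it between -0.17 and 0.02, so the group has no direction that holds across scalings. Subunits of the proteasome, which degrades proteins, rose in 2 of 23 (Psmc4 and Psmd11), a share called of 8.7%, with a median of 0.07. Antioxidant response genes fell in 6 of 20 and rose in 2, a share called of 40% against 23.7% of all genes. Hmox1, the haem-degrading enzyme, measured 0.81, 1.16, 0.64, -0.40 and -0.29 in naive and -0.93, -0.42 and 0.22 in defeated mice. Its raw values overlapped, and both naive arrays of slide 3 were low. The difference was -0.92 ± 0.15, but 0.10 under normexp. Catalase (Cat) fell by 0.48 ± 0.08, the cystine carrier Slc7a11 by 0.60 ± 0.20, the lipid peroxidase Gpx4 by 0.40 ± 0.10 and the peroxiredoxin Prdx1 by 0.36 ± 0.09, whereas the thioredoxin reductase Txnrd1 rose by 0.32 ± 0.08. Their median over other scalings ran from -0.11 to 0.07.

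Interferon response genes rose in 1 of 17 (Stat2, 0.30 ± 0.08) and fell in 2, both subunits of the immunoproteasome. The share called was 17.6%, against 23.7% of all genes. Psmb9 measured -0.58, -0.73, -0.43, -0.14 and -0.35 in naive and -1.64, -1.32 and -0.69 in defeated mice, a difference of -0.73 ± 0.12, and Psmb8 fell by 0.44 ± 0.13. Cholesterol synthesis genes rose in 5 of 22, a share called of 22.7% against 23.7% of all genes, with a median of 0.10, among them Insig1 (0.43 ± 0.11), which retains the sterol regulator SREBP in the ER, and the synthesis enzyme Fdft1 (0.37 ± 0.12). Of 11 collagen chains only the neuronal Col25a1 passed, 0.59 ± 0.14 higher. Fibrillar Col1a1 (-1.05 ± 0.66) and Col3a1 (-0.89 ± 0.36) had larger differences with larger errors.

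**Figure D4:**
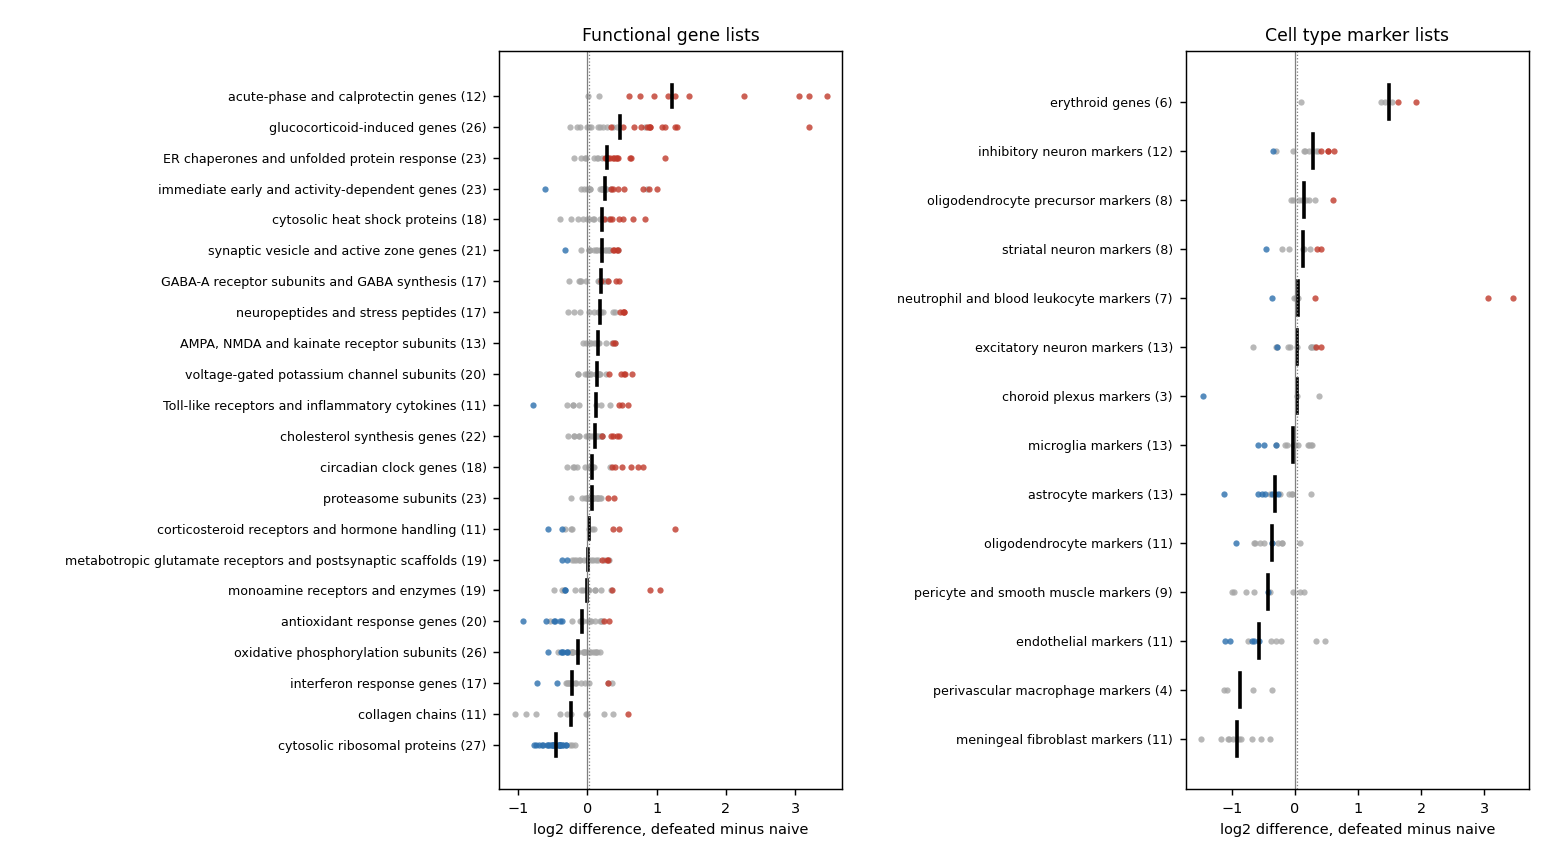
Log2 difference (defeated minus naive) of every tested member of 22 functional lists (left) and 14 cell type marker lists (right), with the number tested in brackets; red and blue points are members past the threshold, grey points are not, the black bar is the list median, the solid line is 0 and the dotted line is the median of all genes tested, 0.03. Acute-phase genes, with a median of 1.22, and cytosolic ribosomal proteins, with a median of -0.46, stand at the ends of the functional lists.

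Among markers of brain cell types, several astrocyte genes fell. Of 13 tested 7 fell, against 9.18% of all genes lower, and 0 rose, with a median of -0.31 that was -0.30, -0.40 and -0.21 on the 3 slides. The mean level over the list ran from 3.85 to 4.17 in naive and from 3.46 to 3.77 in defeated mice. Fabp7, the fatty acid binding protein of astrocytes and radial glia, measured 3.90, 3.81, 4.42, 4.24 and 4.05 in naive mice and 2.53, 2.72 and 3.60 across defeated mice, with no overlap and a difference of -1.13 ± 0.14, or 0.456 of the naive level (limma adjusted p = 0.00221). S100b fell by 0.59 ± 0.12, Aldoc by 0.53 ± 0.09, Sox9 by 0.48 ± 0.15 and the water channel Aqp4 by 0.37 ± 0.13. The glutamate transporters Slc1a2 (-0.04 ± 0.09) and Slc1a3 (-0.24 ± 0.10), the gap junction gene Gja1 (-0.05 ± 0.11) and Gfap (-0.40 ± 0.18) did not pass. Under normexp 4 markers fell, without naive mouse 1, 3 did, without slide 2, 1 fell and 1 rose, and without slide 1 or with brightness as a covariate 0 passed.

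Endothelial markers fell in 5 of 11, against 9.18% of all genes lower, and rose in 0, with a median of -0.56 that was -0.61, -0.22 and -0.77 on the 3 slides. The mean level over the list ran from 1.26 to 1.77 in naive and from 0.88 to 1.65 in defeated mice, which overlap. Icam2, an adhesion molecule of vessel walls, measured 1.21, 1.11, 1.21, 1.53 and 1.42 in naive and -0.75, 0.24 and 1.05 in defeated mice. No values overlapped, and the difference was -1.11 ± 0.24 (limma adjusted p = 0.00817). Itm2a fell by 1.02 ± 0.22, the VEGF receptor Flt1 by 0.68 ± 0.21, the transporter Slco1a4 by 0.65 ± 0.15 and the efflux pump Abcb1a by 0.56 ± 0.18. The tight junction gene Cldn5 (-0.38 ± 0.22), the adhesion gene Pecam1 (-0.29 ± 0.13) and the glucose transporter Slc2a1 (0.48 ± 0.19) did not pass. Without slide 1 or with brightness as a covariate 0 endothelial markers passed.

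Meningeal fibroblast markers passed in 0 of 11, with a median of -0.92 and SEs of up to 0.79, and their mean level ran from 0.37 to 2.17 in naive and from -0.61 to 1.65 in defeated mice, which overlap widely. Perivascular macrophage markers passed in 0 of 4, with a median of -0.87. Of the choroid plexus list, transthyretin (Ttr) fell by 1.46 ± 0.43 but was well above background in 6 of 9 defeated mice, and Folr1 stood at 0.03 ± 0.09. Oligodendrocyte markers fell in 2 of 11 (Aspa and Mog), while their list median was 0.25, -0.91 and -0.37 on the 3 slides. Pericyte and smooth muscle markers fell in 1 of 9 (Higd1b, -0.43 ± 0.12). The shares called were 18.2% of the oligodendrocyte and 11.1% of the pericyte list, against 23.7% of all genes.

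Microglia markers fell in 3 of 13, Aif1 by 0.59 ± 0.13, Siglech by 0.50 ± 0.14 and Itgam by 0.30 ± 0.08, and their median was -0.03. The share called was 23.1%, close to the 23.7% of all genes. The complement genes C1qa to C1qc and the homeostatic genes P2ry12, Cx3cr1 and Tmem119 did not pass. Excitatory neuron markers split 2 higher and 1 lower of 13, with a median of 0.04. Inhibitory neuron markers rose in 4 of 12, led by Lamp5 (0.62 ± 0.14), and fell in 1, Lhx6, with a median of 0.28. Of 8 striatal markers Drd2 and Pde10a rose and Adora2a fell by 0.46 ± 0.07, with all 9 defeated mice below all naive mice. Of the precursor list, Gpr17, a receptor of committed oligodendrocyte precursors, rose by 0.60 ± 0.10, and the other 7 genes did not pass. The shares called were 23.1% of the excitatory, 41.7% of the inhibitory, 37.5% of the striatal and 12.5% of the precursor list. The excitatory neuron markers Slc17a7, Neurod2 and Camk2a passed the filter on background. All 8 striatal markers did so too, so passing it does not identify the region. The part of cell composition in any of these differences was not tested.

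Several genes of very small p belong to none of the lists. Mb21d2, a paralogue of the DNA sensor cGAS, measured -2.91, -3.51, -3.66, -2.59 and -2.40 in naive and -2.29, -2.08 and -1.66 in defeated mice. The arms did not overlap, and the difference was 1.00 ± 0.10 (limma adjusted p = 0.000879). Naive mice 2 and 3 lay below the lowest signal well above background on their arrays, -3.25 and -2.86. Mb21d2 thus entered the fit through defeated mice, so neither its p nor the lack of overlap is support for the rise. S100a16, a calcium-binding protein, was at 4.15, 4.44, 4.39, 4.41 and 4.40 in naive and at 3.25, 3.37 and 3.93 in defeated mice, again with no overlap, and fell by 0.81 ± 0.08 (limma adjusted p = 0.000879). Within slides Mb21d2 differed by 0.88, 1.33 and 0.71 and S100a16 by -0.85, -0.95 and -0.59. Further rises of this kind were Syt17 (0.86 ± 0.11), the inositol phosphate kinase Ippk (0.70 ± 0.09), the alanine transaminase Gpt2 (0.72 ± 0.09) and Farp2 (0.93 ± 0.12), and further falls were Aif1l (-1.22 ± 0.15), the potassium channel Kcnj15 (-0.92 ± 0.12) and Lgi4 (-0.68 ± 0.09), a secreted protein of glia.

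Large differences outside the inflammatory genes were the secretoglobin Scgb3a1 (2.38 ± 0.51), the secreted matrix protein Thsd4 (1.54 ± 0.24), the amino acid oxidase Lao1 (1.63 ± 0.23), the flavin monooxygenase Fmo2 (1.47 ± 0.30), Sorbs2 (1.43 ± 0.24) and the dexamethasone-induced Rasd1 (1.37 ± 0.20). Lao1 measured -2.92, -3.60, -3.05, -3.73 and -2.63 in naive and -2.23, -1.70 and -0.79 in defeated mice, which did not overlap. Naive mice 2 and 3 lay below the lowest signal well above background on their arrays, -3.25 and -2.86. Lao1 thus entered the fit through defeated mice, so the lack of overlap is no support for its rise. Tmem52 was well above background in 0 of 5 naive and 8 of 9 defeated mice and was at least 2.38-fold higher, with bounds of at least 1.42-fold for Ptx4 and 1.33-fold for Galnt15. Tmem52, Ptx4 and Galnt15 entered the fit through defeated mice alone, so that they passed is no support for their rises. Large falls were those of Serpind1 (-1.67 ± 0.49), the lectins Cd209a (-1.66 ± 0.53) and Cd209f (-1.43 ± 0.46) of macrophages and dendritic cells, Wdr86 (-1.48 ± 0.49), Spem2 (-1.45 ± 0.25) and the carbonic anhydrase Car7 (-1.24 ± 0.20). Cd209a was well above background in 5 of 9 defeated mice and passed in 8 of the 14 fits that leave out 1 mouse. Susceptible mice, 6 of those 9, thus did not meet the filter on background as a class. Neither the p of Cd209a nor these fits are therefore support for its fall.

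Pooling joined mice of different behaviour. Between susceptible and resilient mice 0 genes (0%) passed limma's test and 293 had an unadjusted p under 0.05. With 3 resilient mice the precision is low: the class difference was 1.64 ± 0.57 for S100a8, 1.38 ± 0.56 for Scgb3a1 and 0.54 ± 0.53 for Lcn2, each higher in susceptible mice. It was 0.21 ± 0.29 for Fkbp5, 0.03 ± 0.13 for Hspa5, -0.14 ± 0.20 for Arc and 0.14 ± 0.13 for Rps3. The smallest unadjusted p was that of Wif1, a Wnt inhibitor, which was 1.49 ± 0.28 lower in susceptible than in resilient mice. The purine receptor P2rx7, 0.65 ± 0.17 lower, was also among the 10 genes of smallest p named for this contrast. For Wif1 the adjusted p was 1.00, and its pooled difference was 0.75 ± 0.37 and did not pass. Against the same 5 naive mice, 2187 genes (15.1%) passed for susceptible and 567 (3.92%) for resilient mice. Slide 3 held 0 resilient mice, so all of them lay on slides 1 and 2, where every defeated array was brighter than every naive one. Lcn2 differed by 3.34 ± 0.44 in susceptible and 2.80 ± 0.57 in resilient mice, Fkbp5 by 1.32 ± 0.24 and 1.103 ± 0.31, Hspa5 by 0.62 ± 0.11 and 0.59 ± 0.14, and Rps3 by -0.66 ± 0.11 and -0.80 ± 0.14. These 2 sets of values share their control mice.

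Probes with no gene name were kept apart. Of 10982 such probes that passed the filter, 2224 (20.3%) differed between defeated and naive mice, 543 higher and 1681 lower.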

How the data were processed

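Each array held the RNA of 1 mouse in 1 colour. Spots were read with Agilent Feature Extraction 11.0.1.1, per the submitters' processing notes, and the spot intensity used here is the background-subtracted processed signal, per the file headers; it was not normalised between arrays. The authors also deposited a log2 value table, which matched log2 of that signal up to 1 constant per array and served as an alternative.

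From the intensities, log2 was taken and the 75th percentile of each array subtracted. Control spots (3671 of 62976 per array) and outlier spots were left out. Of 55681 probes, 27509 were named through the RefSeq gene table (20887 genes) and 28172 were kept unnamed. After a filter on signal well above background 29825 probes remained, and 14453 genes were tested in limma 3.58.1 (R 4.3.3), with the slide as a block, empirical Bayes and Benjamini-Hochberg adjustment. Tables, promoter searches and plots used Python 3.11.15. The scripts were tested on simulated data.

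Replicates are single mice, each on an array of its own, so p-values reflect the spread between mice and between arrays together. The number of arrays limits the precision. Mean brightness and position on the slide differed between the arms, so the p-values do not separate defeat from either. With brightness as a covariate, the median moved from 1.22 to 0.65 for acute-phase genes and from -0.37 to -0.61 for oligodendrocyte markers. The part of brightness in the differences was not tested further. The groups and gene lists were chosen with earlier results of these data known. Genes were named by a rule: the 12 largest differences and the 8 smallest p in each direction, up to 5 by bound, up to 4 of each list past the threshold, the 10 smallest p between the classes, and Tlr2, Tlr4, Il1a, Tnf, Nr3c1 and Nr3c2. Other list members, and those that did not pass, were chosen for the text after their values were seen. Alternatives covered the block, scaling, background correction, filter, probe summary, weights, classes, slides and single mice. A few single-gene values are not reported here. Not analysed here were probe sequences and the membership of mice in experiments.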

Additional observations from a re-analysis of the deposited data

Results flagged for a closer look

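Among 308 groups of values of named genes, adjusted for slide, 14 held 1 mouse whose gap to its nearest neighbour was large for the range of its group (Dixon's test at the 95% level), and chance gives about 1 in 20 such groups. Of the 13 described here, 8 concerned naive mouse 3. Its level was lower than that of the other naive mice for the co-chaperone genes Fkbp4 (-0.52 against -0.21 to -0.12) and Chordc1 (0.28 against 0.52 to 0.59), for the scaffold gene Dlg1 (1.82 against 2.16 to 2.29), the potassium channel Kcnq3 (-2.46 against -1.74 to -1.45) and the sterol regulator Srebf2 (-1.40 against -0.94 to -0.83). It was higher for Maoa (0.63 against 0.31 to 0.37), for the respiratory subunit Cox4i1 (8.75 against 8.26 to 8.39) and for the astrocyte gene Mlc1 (6.59 against 6.27 to 6.35).

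Naive mouse 1 was low for Zbtb16 (2.38 against 2.61 to 2.66) and naive mouse 2 for Creld2 (2.13 against 2.29 to 2.33). Among defeated mice, susceptible mouse 6 was low for Jun (3.85 against 4.15 to 4.44) and for Sv2b (2.90 against 3.15 to 3.39), and susceptible mouse 4 was high for Grin1 (2.78 against 2.24 to 2.51). Probes without a gene name, which enter no list, held 2224 that passed the threshold between defeated and naive mice.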

How the results depend on the processing

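Against 3420 genes in the fit reported, 1499 passed without a block, 1317 with the replicate block beside slide, 2183 with no filter, 1407 with susceptible and 91 with resilient mice alone, 2 without slide 1, 307 without slide 2, 865 at an adjusted p under 0.01, 635 at a change of at least 1.5-fold, and 0 with array brightness as a covariate, an alternative chosen after seeing the data. The cause of these differences was not tested, beyond the fewer genes or mice that some settings leave. Leaving out 1 mouse gave 1476 to 3988. The other settings gave 2915 to 4994. The replicate block alone gave 3184. The deviations of same-numbered mice correlated at -0.38 to 0.71 with slide effects left in, and at -0.59 to 0.40 with them removed. Whether the numbers pair the mice cannot be told from these values.

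Between the classes leaving out 1 mouse gave 0 to 1 genes, the 1 without resilient mouse 1. The sign turned under normexp for Ppp1r1c (-0.081), Zbtb26 (-0.037), Traf6 (-0.088), Drd2 (-0.0020), Camp (-0.0081) and Hmox1 (0.10), with averaged probes for Grm5 (0.19), under quantile normalisation for Cox4i1 (0.026) and with brightness for Lhx6 (0.019); the cause was not tested. Of 141 named genes past the threshold, 93 stayed past it without a block, 127 under quantile normalisation, 117 under normexp and 2 without slide 1. The small number of arrays limits what these data resolve.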

Other observations

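Among probes without a gene name, 543 were higher and 1681 lower in defeated mice, against 2093 higher and 1327 lower among named genes. When arrays were centred on the median of the genes tested, named genes split into 1693 higher and 1815 lower. What these probes target was not analysed here.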
